A study of Rattus norvegicus with 24 samples.

Results

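The normal colon of 5 rats that had drunk dextran sodium sulfate (DSS), an irritant of the colonic lining, was compared with the normal colon of 5 rats that had not. Samples were chosen by their titles: 6 arrays of normal colon from DSS rats and 7 from untreated rats, which make 13 of the 24 arrays of the series and 10 of its 20 samples of rat and tissue. The other 11 arrays, from the tumours of the same 10 rats, are used here for comparison. All rats were males of the (ACIxF344)F1-Pirc strain with the genotype Apc-Pirc/+, so that treated and untreated animals alike carried 1 mutant copy of Apc, the tumour suppressor that restrains Wnt signalling, and no wild-type animal was in either group. DSS rats (numbers 1, 5, 6, 7 and 9) received 4% DSS of molecular weight 500000 as drinking water from day 40 to day 47 and again from day 54 to day 61. Untreated rats were numbers 2, 3, 4, 8 and 10. Tissue was taken from every rat at day 97, some weeks after the last exposure, from the distal colon. Each sample was labelled with Cy3 and hybridized against pooled colon RNA of rats with wild-type Apc, labelled with Cy5. A level is therefore given as the log2 ratio of sample over pool, and a change as the log2 ratio in DSS rats minus that in untreated rats. Its standard error comes from 1 fit that pools the spread of all 4 groups of 5 rats, tumours included. Where tumours vary less than normal colon, it is smaller than the normal colon samples alone would give. In the sentences below, values for single rats follow the order of rats 1, 5, 6, 7 and 9 for DSS and 2, 3, 4, 8 and 10 for untreated. Bulk RNA was measured, so fewer cells of a type and less RNA per cell cannot be told apart.

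The lining of the colon is a single layer of columnar cells. It is renewed from stem cells at the crypt base and made up mainly of absorptive colonocytes and mucus-secreting goblet cells, with rarer enteroendocrine and tuft cells. DSS damages this lining and brings on colitis, with neutrophils and macrophages drawn in by chemokines, and healing involves crypt cells that take on wound-associated and fetal-like expression. Stratified squamous epithelium, as in skin, oesophagus and anal canal, is built differently: basal cells express the transcription factor p63 and the keratins 5 and 14, and the layers above express other keratins and the proteins of the cornified envelope.

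Of 26400 features tested, 2580 (9.77%) passed an adjusted p of 0.05 (limma, Benjamini-Hochberg): 1282 (4.86%) were higher and 1298 (4.92%) lower in DSS rats. The median change over all features was -0.02. The 5 DSS and 5 untreated values did not overlap for 1797 of the 2580, and for 2549 of all 26400 features. With each array centred on its median in place of loess, 72.7% of the calls were higher, against 49.7% here, and the median change moved to -0.11. The arrays came in 2 slide sets, read from the slide identifiers: set 1 held rats 1 to 6 and set 2 held rats 7 to 10, which were also scanned on a day of their own. Both sets held DSS and untreated rats. Correlations between normal colon samples over all features, given as a description, were 0.806 to 0.969 for rats of 1 treatment and 1 set, 0.622 to 0.832 for rats of 1 treatment across sets, and 0.602 to 0.759 for rats of different treatment within a set. The highest, 0.969, was between DSS rats 1 and 5, close to that between repeat arrays of 1 animal (0.813 to 0.968), and with these 2 rats averaged as 1 animal 2110 features passed. On normal colon arrays the Cy3 signal was well above background for 56.9% to 65.7% of probes, except on the first array of untreated rat 2 (95.2%) and the array of untreated rat 4 (89.9%). Within set 1 alone 4926 features passed and within set 2 alone 16 did (3073 at an unadjusted p under 0.05). Of the 188 named genes that passed over both sets together, 5 also passed within set 2 alone. All 188 had the same sign in both sets, which their selection on both sets together favours.

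**Figure D1:**
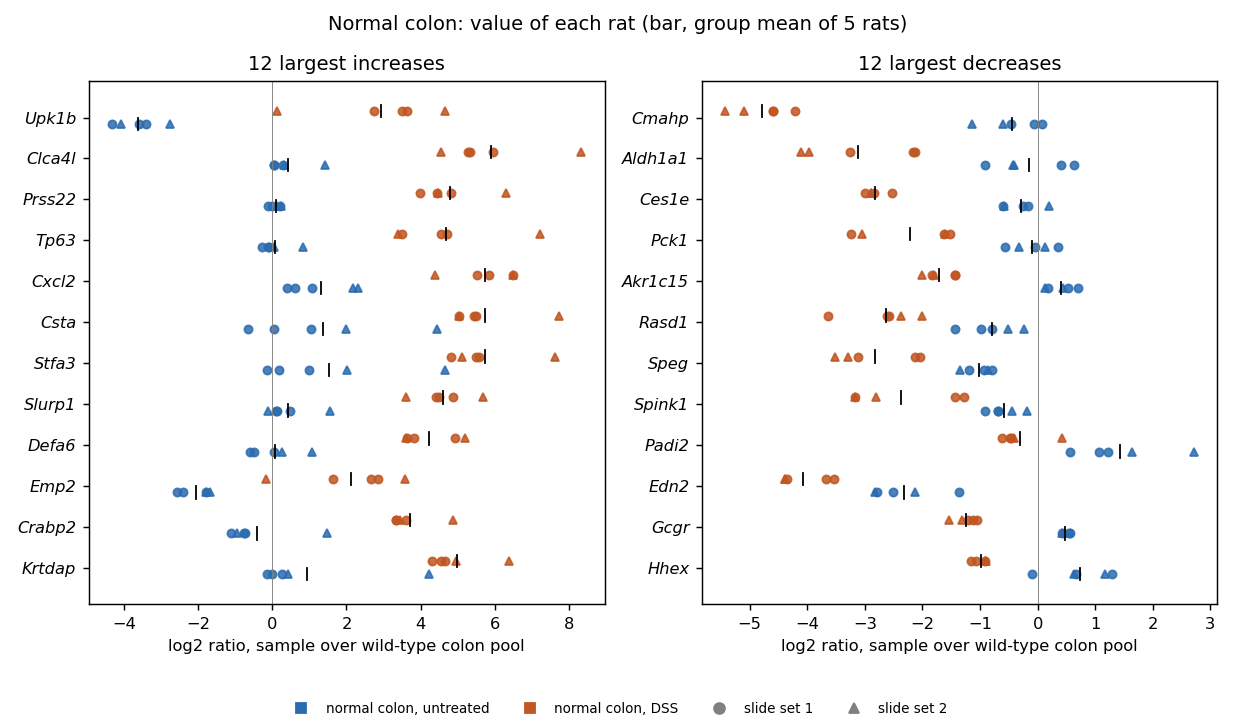
Log2 ratio over the wild-type pool (horizontal axis) in the normal colon of each rat for the 12 genes with the largest increases and the 12 with the largest decreases among features with a symbol whose probe was well above background and not saturated on every array of the higher group and whose groups did not overlap. Each point is a rat, blue for untreated and orange for DSS, circles for slide set 1 and triangles for slide set 2, and black bars are means of 5 rats. In every row the 5 DSS points lie on 1 side of the 5 untreated points, as the selection required. Untreated rat 8 is the blue triangle at 4.22 for Krtdap and 4.44 for Csta.

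The largest increase was that of Upk1b, a uroplakin that forms plaques on the surface of urothelium. Its log2 ratio was 3.51, 3.62, 2.74, 0.12 and 4.67 in DSS rats and -3.40, -4.31, -3.60, -2.75 and -4.08 in untreated rats. The groups did not overlap, and DSS rat 7 was the lowest of its group. The change was 6.56 ± 0.55 (94.3-fold, adjusted p = 9.4e-07, limma), and it was 7.06 within slide set 1 and 5.8 within slide set 2. A second, dimmer probe of Upk1b gave 2.31. Clca4l, which by its name is a chloride channel accessory gene, rose by 5.46 ± 0.71. Fabp5, an epidermal fatty acid binding protein, rose by 5.39 ± 0.44, with its probe saturated on 1 of the 6 DSS arrays, and Prss22, a serine protease of epithelia, by 4.71 ± 0.39. Clca4l lay between 4.55 and 8.32 in DSS rats and between 0.04 and 1.41 in untreated rats. Other members of the 12 largest increases were Emp2, an epithelial membrane protein (4.16 ± 0.47, and 0.82 on a dimmer probe), and Crabp2, a carrier of retinoic acid (4.14 ± 0.49).

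Genes of stratified squamous epithelium rose together, and no other of the 70 gene lists had as large a share of its tested members called. Of 10 basal and suprabasal keratins tested (of 13 in the list), 9 rose and none fell, with a median change of 2.27. Of 19 keratinocyte differentiation genes tested (of 26), 17 rose and none fell, with a median of 2.82. Of 12 squamous transcription factors tested (of 13), 10 rose and none fell, with a median of 1.02, and 6 rose with median centring. These counts, and those of the lists below, stand beside 4.86% of all features called higher and 4.92% called lower, and the medians beside -0.02. The lists were chosen with earlier results of these data known, so the counts describe them and are not independent evidence of a direction. The filter, 5 of 24 arrays well above background, could also be met by the 6 DSS arrays alone. In the order given, 8, 18 and 8 members were well above background on every DSS array and 5, 8 and 5 on every untreated array. The shares and medians may thus favour members that are high in DSS rats.

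Tp63 encodes p63, the factor that basal cells of stratified epithelia depend on. Its log2 ratio was 4.54, 4.70, 3.51, 3.39 and 7.22 in DSS rats and -0.09, -0.13, -0.28, 0.82 and 0.06 in untreated rats. The change was 4.60 ± 0.47 (adjusted p = 5.58e-06, limma). That standard error pools an SD of 1.54 in DSS and 0.431 in untreated normal colon with 0.094 and 0.0872 in DSS and untreated tumours. The probe was well above background on all 6 DSS arrays but on 2 of 7 untreated arrays, so the untreated level, and with it the size of the change, was poorly measured. A second, dimmer probe gave 0.77. Other factors of the list that rose were Trim29, a p63-associated regulator of keratinocytes (2.74 ± 0.23), Ehf, an epithelial ETS factor (1.16), and Pitx1, a homeobox factor (2.19 ± 0.31).

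Krt5, the keratin of the basal layer, stood at 2.37, 2.60, 2.30, 2.70 and 3.79 in DSS rats and at 0.14, 0.06, 0.32, 0.71 and 0.04 in untreated rats. No untreated rat reached the lowest DSS rat, and rat 9 was highest. The change was 2.50 ± 0.20 (5.65-fold, adjusted p = 7.9e-07, limma), and a dimmer probe gave 0.96. Krt10, a keratin of the layers above, was at 3.31, 3.64, 3.24, 3.52 and 4.56 in DSS rats and at 0.12, 0.07, 0.36, 1.87 and 0.04 in untreated rats, a change of 3.16 ± 0.29. Its probe was well above background on 3 of the 7 untreated arrays. Krt1, the partner of Krt10, rose by 2.37 ± 0.30, and Krt14, the partner of Krt5, by 2.17 ± 0.32. Of 6 keratins of simple epithelium, 2 rose, Krt23 (3.77 ± 0.43) and Krt7. The pair that mark the columnar lining, Krt18 and Krt19, were at -0.05 and 0.03 and did not pass. Another bright probe of Krt18 gave -0.54 with an adjusted p of 0.0594 (limma).

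Among the differentiation genes, Slurp1, a secreted regulator of keratinocytes, rose by 4.18 ± 0.33 (18.2-fold, adjusted p = 7.9e-07, limma). Tgm1, the transglutaminase that crosslinks the cornified envelope, rose by 2.43 ± 0.21, and Spink5, a protease inhibitor of the epidermis, by 3.92 ± 0.39. Krtdap, a protein of differentiating keratinocytes, was at 4.54, 4.67, 4.31, 4.96 and 6.38 in DSS rats. In untreated rats it was at -0.01, -0.14, 0.25, 4.22 and 0.42. Untreated rat 8 came near the DSS range, and the change was 4.02 ± 0.59 with that rat and 4.84 without it. Csta, a cystatin of the cornified envelope, was at 5.43, 5.48, 5.04, 5.02 and 7.74 in DSS rats and at 0.05, -0.66, 1.03, 4.44 and 1.99 in untreated rats, with the same untreated rat highest. Second, dimmer probes gave 0.71 for Krtdap, 0.57 for Stfa3, 3.59 for Csta and 4.9 for Spink5. Stfa3, a relative of Csta, rose by 4.19 ± 0.66 on its brighter probe, and the 60-base probes of these 2 genes share no run longer than 5 bases.

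Averaged over the 19 differentiation genes, the log2 ratio was 2.86, 3.02, 2.63, 2.39 and 3.91 in DSS rats and 0.06, 0.02, 0.23, 1.55 and 0.23 in untreated rats. Averaged over the 10 keratins it was 1.89 to 3.06 in DSS rats and -0.22 to 0.99 in untreated rats, rat 8 again being the highest untreated animal. Without rat 8 the calls were 9 of 10 keratins higher, and of the differentiation genes 17 higher and 1 lower. In slide set 1 the medians were 2.2 for keratins and 2.99 for differentiation genes, and in slide set 2 they were 2.33 and 2.58, with no member called in set 2. No tested member of the 3 lists was below background on every untreated array. With 2 of the 7 untreated arrays well above background for 95.2% and 89.9% of probes, that says little about detection in untreated colon. Whether squamous tissue lay within the sampled pieces was not tested. With the mean of the squamous genes as a covariate, no feature passed anywhere on the array with limma, and 1430 had an unadjusted p under 0.05. The squamous mean separates the groups, so that fit has little left to test.

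**Figure D2:**
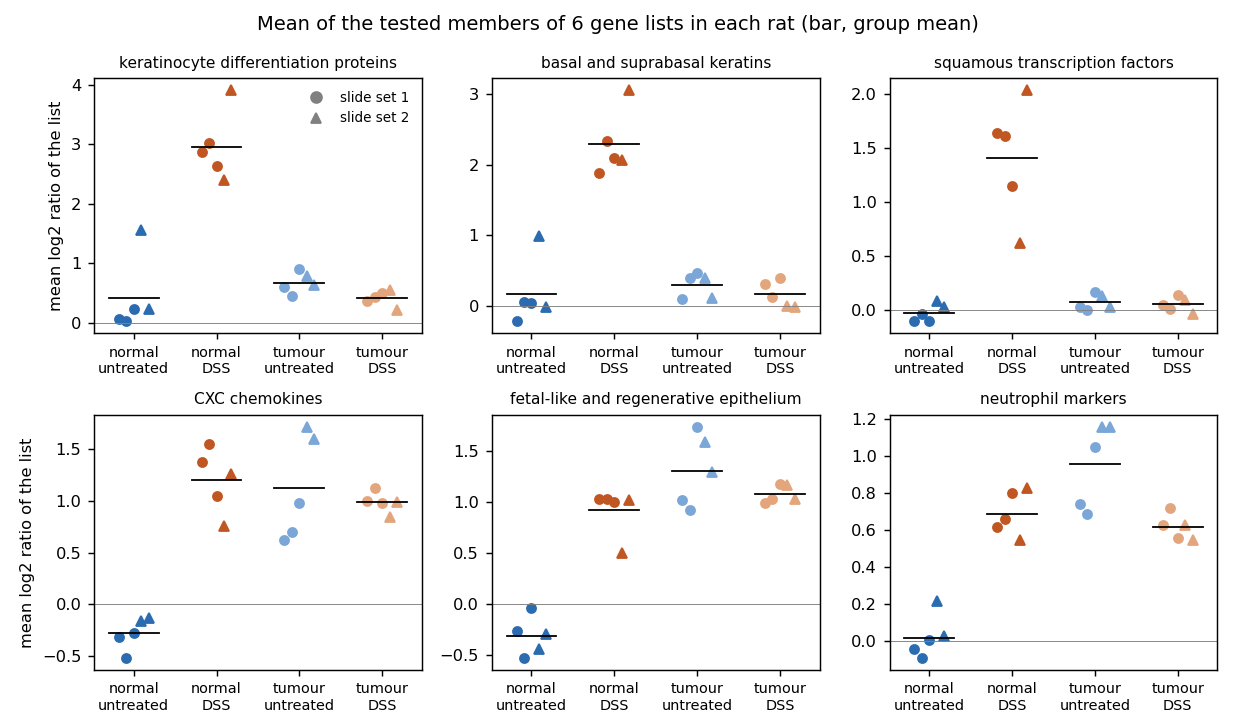
Mean log2 ratio over the wild-type pool of the tested members of gene lists, for each rat and tissue. Points are rats (circles for slide set 1, triangles for slide set 2), bars are means of 5 rats, and the vertical axes differ between the 6 panels. Keratinocyte genes sit between 2.39 and 3.91 in the normal colon of DSS rats and between 0.02 and 1.55 in that of untreated rats.

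Adhesion and junction genes moved less as a group. Of 15 desmosome and hemidesmosome genes, 3 rose and none fell (median 0.16, but -0.28 and 1 higher with median centring), led by Dsg1, the desmoglein of upper squamous layers (1.96 ± 0.29). Of 19 claudins and tight junction genes, 1 rose and 2 fell (median -0.10). Cldn1, a barrier claudin of the epidermis, rose by 1.58 ± 0.20, on a probe well above background on 2 of 7 untreated arrays. Ocln, which encodes occludin, fell by 0.72. Of 5 urothelium markers tested, 3 rose: Upk1b, Krt7 (1.34 ± 0.25) and Grhl3, a factor also in the squamous list (2.29). Grhl3 ran from 0.02 to 3.11 in DSS rats and from -0.07 to 0.16 in untreated rats, so its groups overlapped. Upk3a, another uroplakin, was at 1.04 with an adjusted p of 0.11.

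Chemokines that attract neutrophils rose in the normal colon of DSS rats. Of 13 CXC chemokines tested, 6 rose and none fell, with a median of 0.97. Cxcl1 was at 4.89, 5.54, 4.5, 3.65 and 5.13 in DSS rats and at 0.28, 0.27, 0.66, 1.06 and 1.36 in untreated rats. The lowest DSS rat lay above the highest untreated rat by more than the range of either group. The change was 4.01 ± 0.42 (16.2-fold, adjusted p = 7.57e-06, limma). Cxcl2 was at 5.83, 6.50, 5.52, 4.37 and 6.49 in DSS rats and at 0.41, 0.61, 1.08, 2.32 and 2.17 in untreated rats, a change of 4.43 ± 0.57. In slide set 2 both treatments were closer for these genes, with changes of 3.18 for Cxcl1 and 3.19 for Cxcl2 against 4.57 and 5.25 in slide set 1. Cxcl3 rose by 3.1 ± 0.29 and Ppbp, a platelet chemokine of the same receptor, by 2.43 ± 0.27. The other 2 that rose, named after their values were seen, were Cxcl6 (1.73) and Cxcl17 (2.10).

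Several of these genes lie together on chromosome 14, and the promoters of 3 of them hold matches to a kappaB motif, the sequence recognised by the inflammatory factor NF-kappaB. They are shown because these genes moved together. The motif searched was GGG, any 2 bases and TTTCC, on both strands, in the 250 bases before each gene's start in RefSeq's GRCr8 promoters. Of 27457 promoters of that length, 1.28% hold it, as do 1.73% of those of genes that rose, 0.753% of those of genes that fell and 1.5% of those of all genes tested. Capitals mark the matches. Positions are chr14:17479322-17479571 for Cxcl1, chr14:17467256-17467505 for Cxcl2 and chr14:17596418-17596667 for Cxcl6, all on the minus strand and printed 5′ to 3′.
Cxcl1: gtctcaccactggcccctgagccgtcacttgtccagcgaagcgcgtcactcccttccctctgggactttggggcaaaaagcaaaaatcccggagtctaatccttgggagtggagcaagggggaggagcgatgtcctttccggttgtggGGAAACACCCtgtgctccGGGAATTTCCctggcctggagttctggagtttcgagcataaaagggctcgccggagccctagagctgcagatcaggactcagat
Cxcl2: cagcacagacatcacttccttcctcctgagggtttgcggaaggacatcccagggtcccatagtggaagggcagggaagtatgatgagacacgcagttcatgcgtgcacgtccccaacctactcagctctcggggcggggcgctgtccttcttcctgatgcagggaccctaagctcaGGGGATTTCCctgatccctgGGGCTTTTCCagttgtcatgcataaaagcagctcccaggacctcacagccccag
Cxcl6: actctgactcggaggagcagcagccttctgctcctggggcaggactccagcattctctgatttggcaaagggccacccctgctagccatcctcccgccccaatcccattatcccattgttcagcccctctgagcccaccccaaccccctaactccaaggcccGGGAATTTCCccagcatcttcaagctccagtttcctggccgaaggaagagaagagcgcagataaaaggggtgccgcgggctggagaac
The promoters of Cxcl1 and Cxcl2 hold 2 matches each and that of Cxcl6 holds 1. The other 9 of the 12 CXC promoters in the table hold none in this window, those of Cxcl17 and Ppbp included. A match is a description of the letters, and binding was not measured.

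Of 17 CC chemokines 3 rose and none fell (median 0.17). They were Ccl2, a monocyte attractant (1.89 ± 0.49), Ccl3, a macrophage chemokine (1.14 ± 0.22), and Ccl21, which guides cells to lymphatics (1.66 ± 0.29). Of 14 genes of the interleukin-1 family and inflammasome, 7 rose and 1 fell, with a median of 0.45. Il1b, the main secreted interleukin-1, was at 2.20, 2.41, 2.17, 1.71 and 1.90 in DSS rats and at -0.24, -0.61, -0.16, 0.71 and 0.53 in untreated rats. Those 2 ranges did not overlap, and the change was 2.03 ± 0.28 (4.08-fold, adjusted p = 0.000106, limma), with 3.11 from a dimmer probe. Il1a, the form stored in epithelial cells, rose by 2.86 ± 0.32. The inhibitors rose too, with the decoy receptor Il1r2 at 1.72 ± 0.26 and the receptor antagonist Il1rn at 1.44 ± 0.27. The 1 member that fell was Il18 (-1.04), an interleukin of the same family, named after its value was seen. Of 14 targets and regulators of NF-kappaB, 5 rose and 1 fell, among them the adhesion molecule Icam1 (1.17 ± 0.19) and the cofactor Bcl3 (0.84 ± 0.15). With median centring the calls fell to 4 higher in the interleukin-1 list and 1 higher in the NF-kappaB list. Of 17 prostaglandin genes, 3 rose and 2 fell. Ptgs2, the inducible cyclooxygenase, was at 0.44 ± 0.23 with an adjusted p of 0.276, and at 0.7 within slide set 1 (adjusted p = 0.0494) against 0.05 within slide set 2. Ptger3, a prostaglandin E receptor, fell by 1.03.

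The defence genes of epithelium and neutrophils moved in part. S100a8 and S100a9 encode calprotectin, which is abundant in neutrophils and is also made by stressed squamous epithelium. S100a8 was at 3.35, 3.43, 3.89, 2.75 and 4.16 in DSS rats and at 0.33, 0.05, 0.31, 0.98 and 0.19 in untreated rats, a change of 3.15 ± 0.34 (adjusted p = 8.72e-06, limma), while 2 dimmer probes of it gave 0.83 and 1.05. S100a9 was at 2.71, 2.70, 3.68, 3.15 and 3.79 in DSS rats and at 0.16, -0.06, 0.09, 1.82 and 1 in untreated rats, a change of 2.60 ± 0.36. Neither overlapped between the groups. Of 12 neutrophil markers these 2 passed, and the median of the list was 0.35. With the processed signals of the scanner software 7 were higher and the median was 1.82. The next by p was Csf3r, a cytokine receptor of granulocytes, at 0.42, which did not pass. Of 12 macrophage markers 2 rose, Lyz2, a lysozyme (2.48 ± 0.29), and Cd68 (1.05 ± 0.28), with a list median of 0.14. No marker of T and NK cells (14 tested, median 0.03) or of B and plasma cells (6 tested, median 0.24) passed with limma, and none had an unadjusted p under 0.05. Of 9 mast cell markers none passed either, with 2 at an unadjusted p under 0.05. Of 16 epithelial antimicrobial genes 4 rose and none fell. Defa6, an alpha-defensin, was at 3.62, 3.81, 4.92, 5.19 and 3.6 in DSS rats and at -0.48, 0.05, -0.61, 0.27 and 1.08 in untreated rats, a change of 4.16 ± 0.41. Defb1 rose by 3.31 ± 0.32 and Defb4 by 1.88 ± 0.21, both beta-defensins of surface epithelium with probes well above background on 3 of 7 untreated arrays. Reg3b, a lectin of inflamed gut, ran from -4.65 to -3.84 in DSS rats and from -4.53 to -3.39 in untreated rats (-0.11 ± 1.05, adjusted p = 0.966, with a standard error pooled over groups that include untreated tumours with an SD of 3.51), and Lcn2, which encodes lipocalin 2, was at 0.01 ± 0.11 (95% interval -0.21 to 0.23). Of 26 interferon response genes 6 rose and none fell, with Ifitm3 first at 2.20 ± 0.32, and with median centring 1 rose.

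**Figure D3:**
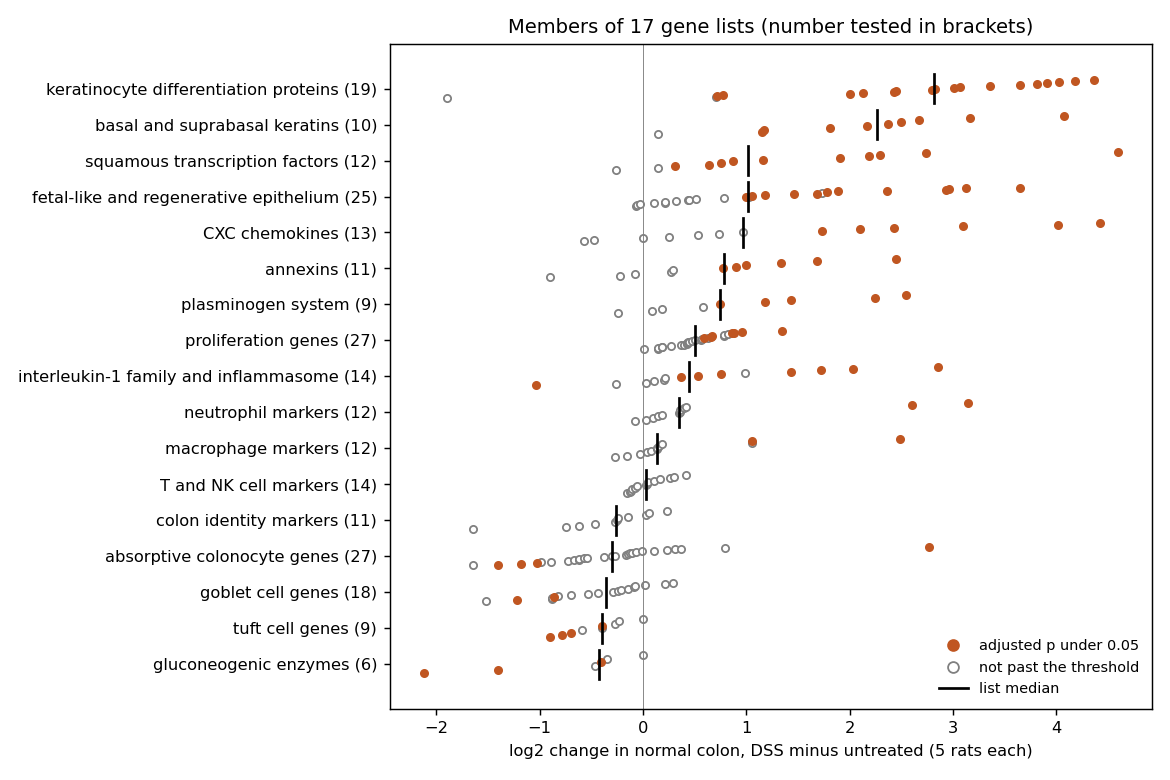
Log2 change in normal colon, DSS minus untreated, for the tested members of gene lists. Each point is a gene, filled where it passed an adjusted p of 0.05, and bars are medians of the list. The keratinocyte list has a median of 2.82 and 17 of 19 members higher, and the list of colon identity markers has a median of -0.26 and no member called.

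Of 9 genes of the plasminogen system, which dissolves fibrin and opens tissue to moving cells, 5 rose and none fell (median 0.75), and 3 rose with median centring. They included the activators Plat (2.24 ± 0.26) and Plau (1.43 ± 0.24), the receptor Plaur (1.18 ± 0.24) and the inhibitor Serpinb2 (2.55 ± 0.29). Mmp7, a matrix metalloprotease of injured and neoplastic epithelium and a Wnt target, was at 2.55, 2.74, 4.04, 3.94 and 3.87 in DSS rats and at -0.31, -0.73, -0.47, -0.10 and -0.10 in untreated rats. Every DSS rat was above every untreated rat, and the change was 3.77 ± 0.32 (13.7-fold, adjusted p = 9.4e-07, limma). It was 3.62 within slide set 1 and 4 within slide set 2. Of 21 metalloproteases and inhibitors 3 rose and 1 fell (median 0.36), beside 4.86% of all features called higher and 4.92% lower. With median centring 1 rose and none fell. Of 25 genes of fetal-like and regenerative epithelium 12 rose and none fell, with a median of 1.02. Cd44, a hyaluronan receptor of crypt and regenerating cells, was at 0.45, 0.57, 1.06, 0.47 and 1.28 in DSS rats and at -1.83, -2.89, -2.98, -2 and -2.11 in untreated rats. The groups lay apart, with a change of 3.13 ± 0.24 (adjusted p = 7.82e-07, limma), but a second, dimmer probe of Cd44 gave 0.46 with an adjusted p of 0.0892. The cell death regulator Phlda1 rose by 2.37 ± 0.27 and Anxa1, a glucocorticoid-induced annexin, rose by 1.68 on a probe saturated on 5 of 6 DSS arrays and by 3.03 on its other probe. Of 11 annexins 6 rose and none fell (median 0.78). With median centring the calls fell to 5 of the regenerative genes and 1 annexin. Anxa1 and Sprr1a, both in the regenerative list, are also expressed in squamous epithelium.

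Stromal and growth factor genes changed more moderately. Beside the counts given here, 4.86% of all features were called higher and 4.92% lower. Of 21 fibroblast and matrix genes 4 rose, among them the proteoglycan Dcn (2.22 ± 0.38) and fibronectin, Fn1 (1.34 ± 0.27), and of 13 collagens 4 rose, with Col18a1 first (1.44 ± 0.22). None in either list fell, and with median centring 1 matrix gene and 0 collagens passed. Of 13 genes of the IGF system 5 rose and none fell, all binding proteins, led by Igfbp3 (3.79 ± 0.51) and Igfbp7 (2.20 ± 0.38). Ltbp1, which stores latent TGF-beta in the matrix, rose by 2.70 ± 0.39. The smooth muscle list gave 1 gene of 8, Tpm2, a tropomyosin (3.44 ± 0.42), with a list median of -0.18. Of 13 heat shock genes 3 rose, and of 13 genes of endoplasmic reticulum stress 4 rose, with none lower in either list. They included Chac1, a glutathione-degrading enzyme of the unfolded protein response (2.52 ± 0.24), and Hspb1, a small heat shock protein (3.13 ± 0.42).

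The genes of the columnar lining had smaller median changes than the squamous lists, and most of them were below 0. A change above 0 was seen in 3 of 11 colon identity, 6 of 27 absorptive, 3 of 18 goblet and 1 of 9 tuft cell genes. Over all features 4.92% were called lower and 4.86% higher, with a median change of -0.02. Of 11 markers of colon identity none passed with limma (2 at an unadjusted p under 0.05, median -0.26). Cdx2, the homeobox factor that specifies intestine, was at -0.26 ± 0.21 (95% interval -0.69 to 0.18). Slc26a3, the chloride-bicarbonate exchanger of surface colonocytes, was at -0.19, -0.03, -1.05, -1.12 and -2.05 in DSS rats and at 0.33, 1.57, 2.09, -0.44 and 0.23 in untreated rats. Those values overlapped, and the change was -1.65 ± 0.69 with an adjusted p of 0.156, or 0.0137 with slide set as a block. Muc2, the main mucin of goblet cells, was at -0.24 ± 0.36 (-1 to 0.52). Of 27 absorptive colonocyte genes 1 rose and 3 fell (median -0.30), and of 18 goblet cell genes 2 fell (median -0.36). These counts moved with the processing. The absorptive genes gave 2 higher and 8 lower with slide set as a block, 0 and 1 with median centring, and 1 and 1 without the 3 arrays with raised signal. The goblet genes gave 6 lower with the block and 1 lower in each of the other 2 settings. The 3 absorptive genes that fell were Hsd11b2, which protects the mineralocorticoid receptor from glucocorticoids (-1.18 ± 0.25), the receptor itself, Nr3c2 (-1.03 ± 0.29), and its target kinase Sgk1 (-1.40 ± 0.43), whose values overlapped between the groups. A second, dimmer probe of Nr3c2 gave -0.25 with an adjusted p of 0.0778 (limma). Aqp3, a water channel shared with epidermis, rose by 2.77 ± 0.60. Of 9 tuft cell genes 4 fell and none rose (median -0.40), Dclk1 (-0.90 ± 0.24), Alox5 (-0.78 ± 0.16), Avil (-0.70 ± 0.18) and Gfi1b (-0.40 ± 0.08), and with median centring none passed. The 2 dimmer probes of Dclk1 gave 0.03 and -0.06. Of 13 intestinal transcription factors 2 fell, Foxa2 (-1.51 ± 0.34) and the vitamin D receptor Vdr (-0.65 ± 0.14).

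Stem cell genes gave no call in 12 tested (limma, 1 at an unadjusted p under 0.05), with Lgr5, the crypt base marker, at 0.14 ± 0.14. Of 9 genes of the Apc destruction complex none passed (1 at an unadjusted p under 0.05), and Apc was at -0.06 ± 0.14. Of 22 Wnt feedback and target genes 4 rose and 2 fell (median 0.14). Those that rose included Cd44 and Mmp7, while Axin2, the feedback inhibitor read as a measure of Wnt signalling, was at 0.20 ± 0.22 (95% interval -0.26 to 0.66) and Myc at 0.03 ± 0.28. All 27 proliferation genes had a change above 0 (median 0.50), and 7 passed. Averaged over the list, the log2 ratio was 0.21, 0.26, 0.91, 0.89 and 0.49 in DSS rats. In untreated rats it was 0.21, 0.13, -0.18, 0.16 and -0.25, so DSS rats 1 and 5 lay close to untreated rat 2. First by p was Rrm2, a subunit of ribonucleotide reductase. It was at 0.29, 0.34, 1.60, 1.68 and 1.08 in DSS rats and at 0.02, -0.40, -0.50, -0.26 and -0.59 in untreated rats, with DSS rats 1 and 5 the lowest of their group. Mki67, the gene of the proliferation marker Ki-67, was at 0.37 ± 0.43 and did not pass. With median centring no proliferation gene passed and the median was 0.1.

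Among metabolic genes, those of retinoid handling moved in both directions. Of 23 tested, 7 rose and 1 fell, while over all features 4.86% were called higher and 4.92% lower. Crabp2 and Rbp2, both cellular carriers of retinoids, rose by 4.14 ± 0.49 and 2.64 ± 0.41, and Aldh1a3, an enzyme that makes retinoic acid, by 1.86 ± 0.23. Aldh1a1, which makes retinoic acid in colonocytes, was at -2.16, -2.13, -3.26, -3.98 and -4.11 in DSS rats and at -0.91, 0.41, 0.64, -0.41 and -0.43 in untreated rats, a change of -2.98 ± 0.40 (adjusted p = 8.82e-05, limma). Its groups did not overlap. Of 6 gluconeogenic genes 3 fell, with Pck1, the rate-limiting enzyme, at -1.52, -1.62, -3.24, -3.05 and -1.61 in DSS rats and at 0.35, -0.56, -0.05, -0.33 and 0.13 in untreated rats (-2.12 ± 0.44). Of 22 genes of fatty acid oxidation and ketogenesis 2 fell and none rose, and of 23 subunits of oxidative phosphorylation none passed (0 at an unadjusted p under 0.05). Of 17 clock genes 3 fell, with Per2 at -1.03 ± 0.25 and Nr1d1 at -1.14 ± 0.30. Hour of dissection is not given in the sources used here.

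The smallest adjusted p of the whole comparison was that of Cmahp (Cmah in the array's design), the gene for the hydroxylase that makes N-glycolylneuraminic acid from N-acetylneuraminic acid. Its log2 ratio was -4.22, -4.59, -4.60, -5.11 and -5.42 in DSS rats and -0.47, 0.08, -0.07, -0.61 and -1.14 in untreated rats. Neither group came within 3 log2 units of the other, and the change was -4.35 ± 0.27 (20.3-fold lower, adjusted p = 4.24e-08, limma). It was -4.32 within slide set 1 and -4.39 within slide set 2, where it also passed (adjusted p = 0.00556). Of 21 genes of sialic acid metabolism 2 rose and 2 fell, with the sialyltransferases St3gal4 up by 1.53 ± 0.27 and St3gal6 down (-1.11 ± 0.21). Other large decreases were those of Ces1e, a carboxylesterase (-2.55 ± 0.27), Gcgr, the glucagon receptor (-1.73 ± 0.17), Edn2, an endothelin (-1.75 ± 0.25), and Hhex, a homeobox factor (-1.72 ± 0.24). Gcgr was at -1.12, -1.06, -1.22, -1.32 and -1.55 in DSS rats and at 0.56, 0.42, 0.54, 0.42 and 0.47 in untreated rats, with no overlap. A second, dimmer probe of Ces1e gave -0.38 with an adjusted p of 0.0701.

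The tumours of the same rats were set beside their normal colon. The change in normal colon differed from that in tumours for 1065 features (4.03%) by the interaction term of the same fit, and for 2626 with the rat as a random replicate block. Of the 188 named genes that passed in normal colon, 110 also passed this test of the difference. The normal colon change is part of that difference, so their selection on it favours this count. For Tp63 the difference was 4.53 ± 0.67 (adjusted p = 0.000561), for Krt5 2.48 ± 0.29 and for Cmahp -4.38 ± 0.38. The median change of the keratinocyte list in tumours was -0.16, against 2.82 in normal colon, and 17 of its 19 members passed the test of the difference.

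Levels in tumours lay near untreated normal colon for some of these genes and near or beyond DSS normal colon for others. Tp63 and Upk1b were low in tumours of both treatments. Tp63 had a mean log2 ratio of 0.10 ± 0.094 (SD, n = 5) in tumours of DSS rats and 0.03 ± 0.0872 (SD, n = 5) in those of untreated rats. For Upk1b these means were -3.92 ± 0.299 and -4.15 ± 0.284. Cxcl1, Mmp7, Cd44 and Prss22 were high in tumours of both treatments. Cxcl1 averaged 4.67 ± 0.534 in tumours of DSS rats and 4.41 ± 1.01 in those of untreated rats, Mmp7 5.39 ± 0.517 and 5.31 ± 0.57, and Cd44 2.33 ± 0.235 and 2.54 ± 0.417. Prss22 averaged 4.16 ± 0.567 and 4.29 ± 0.758. In DSS normal colon the means were 4.74 for Cxcl1, 3.43 for Mmp7, 0.77 for Cd44 and 4.8 for Prss22. For Mmp7 and Cd44 the lowest tumour lay above the highest DSS normal colon. Among the genes that fell, Cmahp averaged -5.46 ± 0.171 and -5.49 ± 0.554 in tumours and Gcgr -1.32 ± 0.36 and -1.41 ± 0.351. The difference between tumours and DSS normal colon was not tested. S100a8 averaged 2.86 ± 0.21 in tumours of DSS rats and 4.06 ± 0.906 in those of untreated rats, and its difference between tissues was 4.35 ± 0.47 (adjusted p = 8.97e-05).

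**Figure D4:**
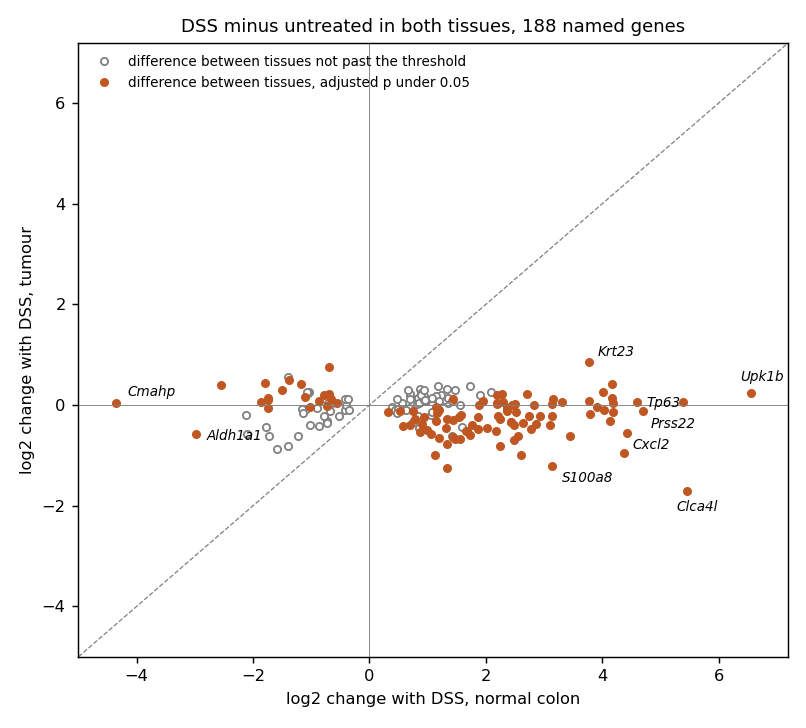
Log2 change with DSS in normal colon (horizontal axis) against log2 change with DSS in tumours (vertical axis) for named genes that passed in normal colon. Each point is 1 of 188 genes, filled where the difference between tissues passed an adjusted p of 0.05, and the dashed line marks equal change. The points spread more along the horizontal axis than along the vertical, which their selection on the normal colon change favours. Upk1b lies at 6.56 in normal colon and 0.24 in tumours, and Clca4l at 5.46 and -1.71.

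Promoters of the squamous genes are shown for an AP-1 motif, since AP-1 factors drive the cornified envelope genes and the members moved together. The letters searched were TGANTCA on both strands, which read the same on either, in the same 250 bases. They occur in 6.36% of all 27457 promoters and in 4.96% of those of genes tested. They occur in 11.7% of the 695 promoters of genes that rose and in 5.27% of the 531 of genes that fell. By list, the letters lie in 6 of 15 keratinocyte, 1 of 4 keratin and 0 of 5 squamous transcription factor promoters. Fosl1, an AP-1 subunit, rose by 1.33 ± 0.25 with values that overlapped between the groups. It was the 1 immediate early gene of 21 to pass, beside 4.86% of all features called higher. Its mean log2 ratio was 1.76 in DSS normal colon, 2.01 in tumours of DSS rats and 2.29 in those of untreated rats. Krtdap averaged -0.27 and -0.17 in the same tumours. Whether AP-1 acted on these genes was not tested. Sprr1a, a cornified envelope precursor, holds 2 matches at chr2:180752626-180752875 on the minus strand, and Krtdap holds 1 at chr1:95165612-95165861 on the plus strand, with matches in capitals.
Sprr1a: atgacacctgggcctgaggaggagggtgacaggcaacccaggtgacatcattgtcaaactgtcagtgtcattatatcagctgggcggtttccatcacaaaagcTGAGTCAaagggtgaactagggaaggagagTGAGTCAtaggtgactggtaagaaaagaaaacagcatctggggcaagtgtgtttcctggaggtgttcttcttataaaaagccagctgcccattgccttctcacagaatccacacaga
Krtdap: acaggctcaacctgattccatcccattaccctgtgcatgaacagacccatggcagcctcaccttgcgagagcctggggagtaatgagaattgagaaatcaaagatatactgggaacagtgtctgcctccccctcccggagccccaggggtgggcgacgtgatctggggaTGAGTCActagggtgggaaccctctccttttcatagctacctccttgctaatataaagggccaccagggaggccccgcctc
For the intestinal factor Cdx2 the letters TTTATNG were searched on both strands. They occur in 10.1% of all promoters, in 7.37% of those of genes tested, in 7.34% of those of genes that rose and in 7.16% of those of genes that fell. None of these shares was tested, and a match is no evidence of binding.

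**Figure D5:**
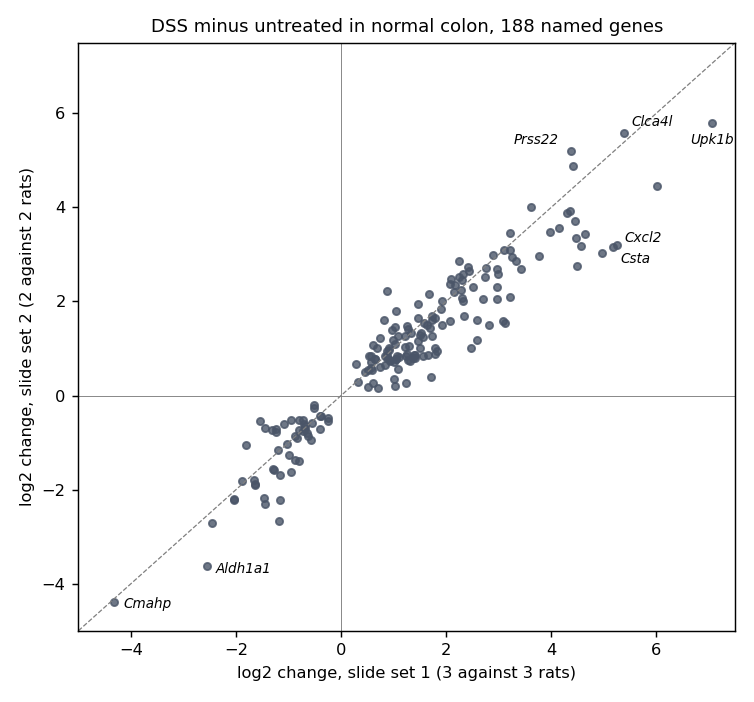
Log2 change in normal colon within slide set 1 (horizontal axis, 3 DSS and 3 untreated rats) against that within slide set 2 (vertical axis, 2 and 2 rats) for the named genes that passed in all rats. Points are genes, the dashed line marks equal change, and the genes were selected on both sets together. Upk1b lies at 7.06 in set 1 and 5.8 in set 2.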

How the data were processed

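Spot signals and local backgrounds of 24 2-colour arrays are intensities as deposited; per the file headers, the scanner software was Feature Extraction 9.1.3.1. The deposited log10 ratio (Cy5 over Cy3) was used to check the dye direction, and the processed signals as an alternative. The authors amplified and labelled total RNA, per the labels' protocols, and dyes were not swapped. The role of Partek, named in the submitters' processing notes, is not given in the sources used here. Members, lists and naming rule were chosen with earlier results of these data known.

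Here, in R 4.3.3 with limma 3.58.1, local backgrounds that the scanner software marked as outliers were replaced by the array's median background (a choice made after seeing the data, since a background of up to 64981.5 against a median of 36 on 1 array distorted the correction). With every background as given, 1921 features passed in place of 2580. Signals were then corrected by normexp with an offset of 50, which shrinks ratios of dim probes, and normalized by loess within each array. Control and non-uniform spots were left out. Features needed a Cy3 signal well above background on 5 or more of 24 arrays, and the brightest probe stood for a gene. A current gene was assigned to 21692 of 41012 probes through RefSeq's table. Repeat arrays of 1 rat were averaged, and 1 model with a mean per group was fitted to 20 samples (16 residual degrees of freedom). Missing values, 0.0699% of all, were left out of the fit of their feature. Tests were two-sided and adjusted over all features. Blocks, scalings, filters and rats left out in turn were tried as alternatives. The fitting script was tested on simulated data.

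Named genes were the 12 largest increases and decreases past the threshold with a symbol, above background and unsaturated on every array of the higher group, and not overlapping, the 4 members of each of 70 lists with the smallest p, and a fixed set of 25 genes. Normal colon and tumour with 1 number are 1 animal per the labels, and their deviations from the group means correlated by 0.28 to 0.59, the own tumour being the best match for 5 of 10 rats. Promoter sequences are RefSeq's, build GRCr8. The number of arrays limits the precision. Some genes of the naming rule are not reported here.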

Additional observations from a re-analysis of the deposited data

Results flagged for a closer look

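For 46 genes, each taken in both groups of normal colon, there were 92 groups of 5 rats. In 9 of them 1 rat was set apart from the other 4 by a gap above 0.71 of the group's range. Chance alone gives about 1 in 20 groups where groups are independent. Here the same rats recur for every gene and several of the genes moved together, so the 9 cannot be judged against that rate. All 9 came from untreated rat 8 or DSS rat 9. Untreated rat 8 was the highest of its group for Clca4l (1.41), Crabp2 (1.47), Krtdap (4.22) and Krt10 (1.87). DSS rat 9 was the highest of its group for Csta (7.74), Stfa3 (7.62), Crabp2 (4.86), Padi2 (0.42) and Krt5 (3.79).

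For 28 of the 46 genes the change with DSS differed between normal colon and tumours by the interaction term (limma, adjusted p under 0.05), given here as the log2 change in normal colon minus that in tumours. The largest changes in normal colon are among the 46 by selection, which favours this count. Among squamous and surface genes it was 6.32 for Upk1b, 4.53 for Tp63, 5.32 for Csta, 4.32 for Stfa3, 4.15 for Slurp1, 4.13 for Krtdap, 2.48 for Krt5 and 3.03 for Krt10. Among inflammatory and defence genes it was 4.98 for Cxcl2, 3.76 for Cxcl1, 2.48 for Il1b, 4.35 for S100a8, 3.6 for S100a9 and 4.03 for Defa6. It was 7.17 for Clca4l, 4.83 for Prss22, 3.75 for Emp2, 4.45 for Crabp2, 3.35 for Cd44 and 3.68 for Mmp7. Among genes lower in DSS normal colon it was -4.38 for Cmahp, -2.41 for Aldh1a1, -2.94 for Ces1e, -1.92 for Rasd1, -2.24 for Speg, -1.89 for Padi2, -1.7 for Edn2 and -1.83 for Gcgr.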

How the results depend on the processing

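Between 787 and 1588 features were lower and between 940 and 1353 higher when each rat was left out in turn; without rat 6 or rat 2 the lower features fell to 787 and 788, from 1298. The tissue difference passed for 597 to 1184 features, from 1065; it was 670 without rat 1, 640 without rat 5, 627 without rat 8 and 597 without rat 4. With slide set as a block 1996 features were higher and 2561 lower, and the tissue difference passed for 1896. Within slide set 1 alone 2107 were higher and 2819 lower, and within slide set 2 alone, with 4 rats, 8 and 8. Scan day as a block gave 2348 lower, and slide as a random block 1958 lower. Array weights gave 2567 higher and 3378 lower. Median centring gave 469 higher and 176 lower. The rat as a random replicate block, which pairs normal colon and tumour of 1 animal, gave 2500 called in normal colon and 2626 tissue differences. Without the 3 arrays with raised signal the tissue difference passed for 708. With the squamous mean as a covariate 0 were higher and 0 lower. Csta (-1.96), Stfa3 (-1.73), Krtdap (-1.3), Tiam1 (-0.38), Krt1 (-0.29), Krt14 (-0.36), Defb4 (-0.02), Dsg1 (-0.6), Cdh3 (-0.03) and Ret (0.07) changed sign. Csta, Krtdap, Krt1 and Krt14 belong to the lists averaged in the covariate, so they were adjusted for a mean that includes them. For the other genes the cause was not tested. Fitted to normal colon samples only, 2559 features passed, and 175 of the 188 named genes that passed kept direction and call. Of these 188 genes, 188 kept direction and call with slide set as a block, 180 with the rat as a random replicate block, 95 with median centring, and 155 to 173 with a rat left out. Dim probes, on few untreated arrays above background, bound the size of a change less well than bright ones.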
